A study of Mus musculus with 8 samples.

Results

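The core autophagy machinery was examined in inguinal white adipose tissue (ING WAT) of mice at postnatal day 21 (PN21) and postnatal day 98 (PN98). Its members were 38 genes taken by symbol from 7 groups: initiation, nucleation, elongation and lipid supply, conjugation, the ATG8 family, cargo receptors and transcriptional regulators. Of these, 37 had values and all 37 passed the filter on low expression, out of 27469 genes with a value above 0 and 16109 genes tested in the series. *Map1lc3b* was not analysed here.

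Poly(A)+ RNA of ING WAT was sequenced from 4 C57BL/6j mice aged PN21 (called m1, m49, m138, m145) and 4 of the same strain aged PN98 (called m35, m106, m114, m125), each library being 1 animal. The labels give the strain, the tissue and the age of each animal and no genotype or treatment beyond these. Per the study's methods, males were followed to PN98 on a control or a western style diet, and epididymal fat, a depot of males, was also collected from the PN21 mice. By the same methods, little food was given on the night before dissection, so that the mice were fasted. The diet of the sequenced PN98 mice is not given in the sources used here, so that age and adult diet cannot be told apart in the comparison. Expression was deposited as FPKM, the fragments of a transcript relative to its length and to the mapped fragments of the library, and was summed here over the transcripts of each gene.

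Autophagy is the route by which a cell encloses part of its own cytoplasm in a double membrane and delivers it to the lysosome. The ULK1 kinase complex starts the process, the class III phosphatidylinositol 3-kinase complex marks the membrane, ATG9 and ATG2 proteins bring lipid, and a pair of ubiquitin-like conjugation reactions attach ATG8 proteins to the growing membrane, where cargo receptors such as p62 bind them. In adipose tissue, autophagy is known for its part in adipocyte differentiation and for the removal of mitochondria when beige adipocytes turn white.

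Of the 37 members, *Gabarapl1* and *Sqstm1* were higher at PN98 in limma with Benjamini-Hochberg adjustment over all genes, no member was lower, and 35 did not pass. *Gabarapl1* encodes an ATG8 protein and *Sqstm1* the cargo receptor p62. Among all 16109 genes, 5.30% passed the same threshold in either direction, 2.37% higher and 2.94% lower at PN98. The share of members was thus close to the share of all genes. At an unadjusted p under 0.05, 7 members were higher and 1 was lower, against 8.18% and 19.1% of all genes. The median log2 fold change (log2 of FPKM + 1, PN98 minus PN21) was 0.13 over the members and −0.21 over all genes. The latter shift depended on the scaling. After scaling by the median of ratios between mice it was −0.02, and after scaling to equal summed FPKM of nuclear genes it was 0.02, with medians of 0.34 and 0.38 over the members. Over all genes, the calls divided into 381 higher and 473 lower as deposited, 770 (4.81%) and 457 (2.85%) after median of ratios scaling, and 574 (3.56%) and 260 (1.61%) after nuclear scaling. *Gabarapl1* and *Sqstm1* were called under both, and *Ulk2* was the other member called after median of ratios scaling. Without the PN98 mouse m35, 5 members were called (*Gabarapl1*, *Sqstm1*, *Atg7*, *Nbr1* and *Tfeb*), but so were 22.2% of all genes. With a weight for each mouse, 7 members and 29.0% of all genes were called. *Nbr1* was in both counts, and its estimate turned on a transcript of 63 bases that was listed at 0 in m35 and is described below. Log2 fold changes are given below as deposited, and those within about 0.2 of 0 on the lower side mostly changed sign with the scaling.

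**Figure D1:**
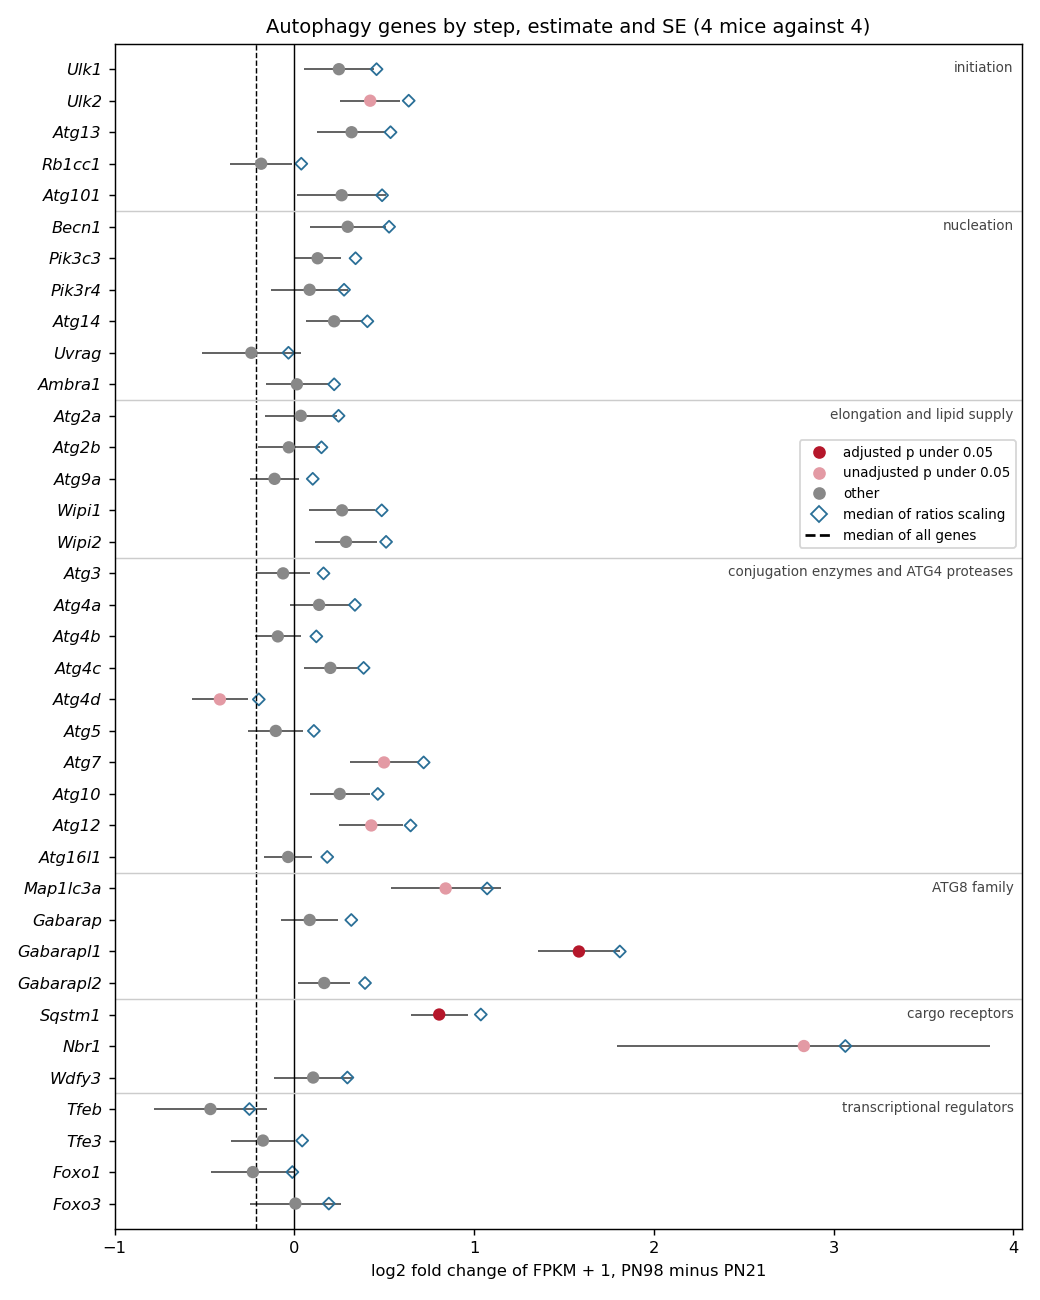
Log2 fold change of FPKM + 1 (PN98 minus PN21, x axis) of the 37 measured members, grouped by step, with the standard error as a line (4 mice against 4); diamonds give the estimate after median of ratios scaling and the dashed line the median of all genes (−0.21). *Gabarapl1* (1.58) and *Sqstm1* (0.81) passed the adjusted threshold, and *Nbr1* had the widest error; 8 of the 12 estimates below 0 are above 0 under median of ratios scaling.

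Some values of the whole series touch these results. Library depth is unknown because only FPKM was given. The share of mitochondrial transcripts in a library was 50.03% to 59.1% at PN21 and 41.7% to 51.2% at PN98. The tissue label was checked against 8 adipocyte markers, all measured in every mouse, whose summed level was 14545 to 29610 FPKM at PN21 and 36574 to 55711 FPKM at PN98. *Adipoq*, *Cidec* and *Lipe* were called higher at PN98, with log2 fold changes of 1.45, 2.16 and 0.99. The other 5 were not called, and *Pparg* alone was below 0 (−0.26). Most of the sum was *Fabp4*, with 10641 to 20251 FPKM at PN21 and 27521 to 37466 FPKM at PN98. The sum of 7 skeletal muscle markers was 32.3 to 773 FPKM at PN21 and 538 to 3634 FPKM at PN98, with *Atp2a1* and *Actn3* called higher. The sum of 8 lymphocyte markers was 304 to 767 FPKM at PN21, 713 FPKM in the PN98 mouse m35 and 13.025 to 146 FPKM in the other PN98 mice. The 6 brown-like adipocyte markers summed to 3037 to 6458 FPKM at PN21 and 371 to 4228 FPKM at PN98, none of them called. For *Ucp1* and *Cox7a1*, every PN98 mouse was nevertheless below every PN21 mouse. Their log2 fold changes were −2.81 and −2.48 (limma, adjusted p = 0.149 and 0.0910), and *Elovl3* alone was above 0 (1.81). Macrophage markers (69.1 to 110 FPKM at PN21, 36.6 to 133 FPKM at PN98) and endothelial markers (149 to 220 FPKM and 65.4 to 239 FPKM) overlapped between the ages, and epithelial markers, of which *Epcam* was called lower at PN98 (log2 fold change −1.16, limma, adjusted p = 0.0422) and *Krt14* was listed at 0 in all PN98 mice, summed to 1.87 to 27.2 FPKM at PN21 and 0.211 to 1.11 FPKM at PN98. The part of these cell types in the results for the autophagy genes was not tested. In bulk tissue, more cells of a type cannot be told apart from more RNA per cell.

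The ATG8 family held the clearest difference. These small ubiquitin-like proteins are conjugated to phosphatidylethanolamine and anchor cargo receptors to the autophagosome. *Gabarapl1*, a member of the GABARAP branch (chr6:129533160-129542346, mm10, plus strand), had 44.9, 25.3, 38.7 and 28.5 FPKM at PN21 (in the order m1, m49, m138, m145) and 82.1, 127, 99.6 and 105 FPKM at PN98 (in the order m35, m106, m114, m125). Every PN98 mouse was above every PN21 mouse, with means of 34.3 ± 9.05 and 104 ± 18.6 FPKM (SD, n = 4). The log2 fold change was 1.58 with a standard error of 0.23 (2.996-fold on this scale, limma, adjusted p = 0.0111). It was 1.81 and 1.86 under the other scalings (adjusted p = 0.00929 and 0.0158), and it remained between 1.45 and 1.72 when each mouse was left out in turn, with adjusted p-values of 0.00698 to 0.0434. All of the *Gabarapl1* signal was assigned to 1 protein-coding transcript of 1820 bases.

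The other ATG8 genes differed less. *Map1lc3a*, which encodes an LC3 protein, had 128, 123, 106.4 and 234 FPKM at PN21 and 238, 185, 380 and 244 FPKM at PN98. PN21 mouse m145 lay within the PN98 range, and the difference did not pass the adjustment (log2 fold change 0.84, standard error 0.31, adjusted p = 0.136 in limma). With 1 mouse left out, its value ranged from 0.65 without m114 to 1.09 without m145 (limma, adjusted p = 0.0863 to 0.268). *Gabarap* had 295, 309, 262 and 353 FPKM at PN21 and 305, 283, 365 and 341 FPKM at PN98. *Gabarapl2* had 37.1, 41.2, 37.1 and 48.5 FPKM at PN21 and 42.6, 48.8, 46.5 and 45.6 FPKM at PN98. For *Gabarap* and *Gabarapl2* the ages overlapped, with log2 fold changes of 0.09 (95% confidence interval −0.27 to 0.45) and 0.17 (−0.17 to 0.50).

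Since FPKM is per length, levels can be set beside each other within a mouse, but the sums mix transcript classes. A retained intron held 42.3% of the FPKM of *Gabarap* and 75.8% of that of *Gabarapl2*. A processed transcript held 67.6% of that of *Map1lc3a*, whereas *Gabarapl1* had its coding transcript alone. *Gabarap* was the most abundant of the 4 measured ATG8 genes in every PN21 mouse, and *Gabarapl1* was listed at 0.0806 to 0.152 of the *Gabarap* level at PN21 and at 0.270 to 0.450 of it at PN98. This ratio within each library does not depend on the scaling between libraries. The groups did not overlap, and the mean log2 ratio was 1.53 higher at PN98 (two-sided exact permutation test over 70 splits, p = 0.0286, the smallest p that 4 against 4 mice allow, and 0.114 after adjustment over the 4 ratios tested).

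Among the cargo receptors, *Sqstm1* rose. Its product p62 binds ubiquitinated proteins and ATG8 proteins and is itself degraded by autophagy. *Sqstm1* (chr11:50199366-50210827, mm10, minus strand) had 267, 212, 255 and 218 FPKM at PN21 and 419, 494, 385 and 371 FPKM at PN98, in the same order of mice as above. The ages did not overlap, with means of 238 ± 27.2 and 417 ± 54.9 FPKM (SD, n = 4). The log2 fold change was 0.81 with a standard error of 0.16 (1.75-fold, limma, adjusted p = 0.0280), and 1.04 and 1.08 under the other scalings (adjusted p = 0.0123 and 0.0296). Without any 1 of the PN21 mice or without m106 or m114 the adjusted p was 0.0640 to 0.0951, with log2 fold changes of 0.72 to 0.86. Without m35 or m125 the gene kept its call (adjusted p = 0.0213 and 0.0423). Together, *Gabarapl1* and *Sqstm1* were the only members with every PN98 mouse above every PN21 mouse, which was so for 6.05% of all genes. *Atg4d* was the only member with every PN98 mouse below every PN21 mouse. The ages thus did not overlap for 3 of 37 members, against 16.1% of all genes.

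**Figure D2:**
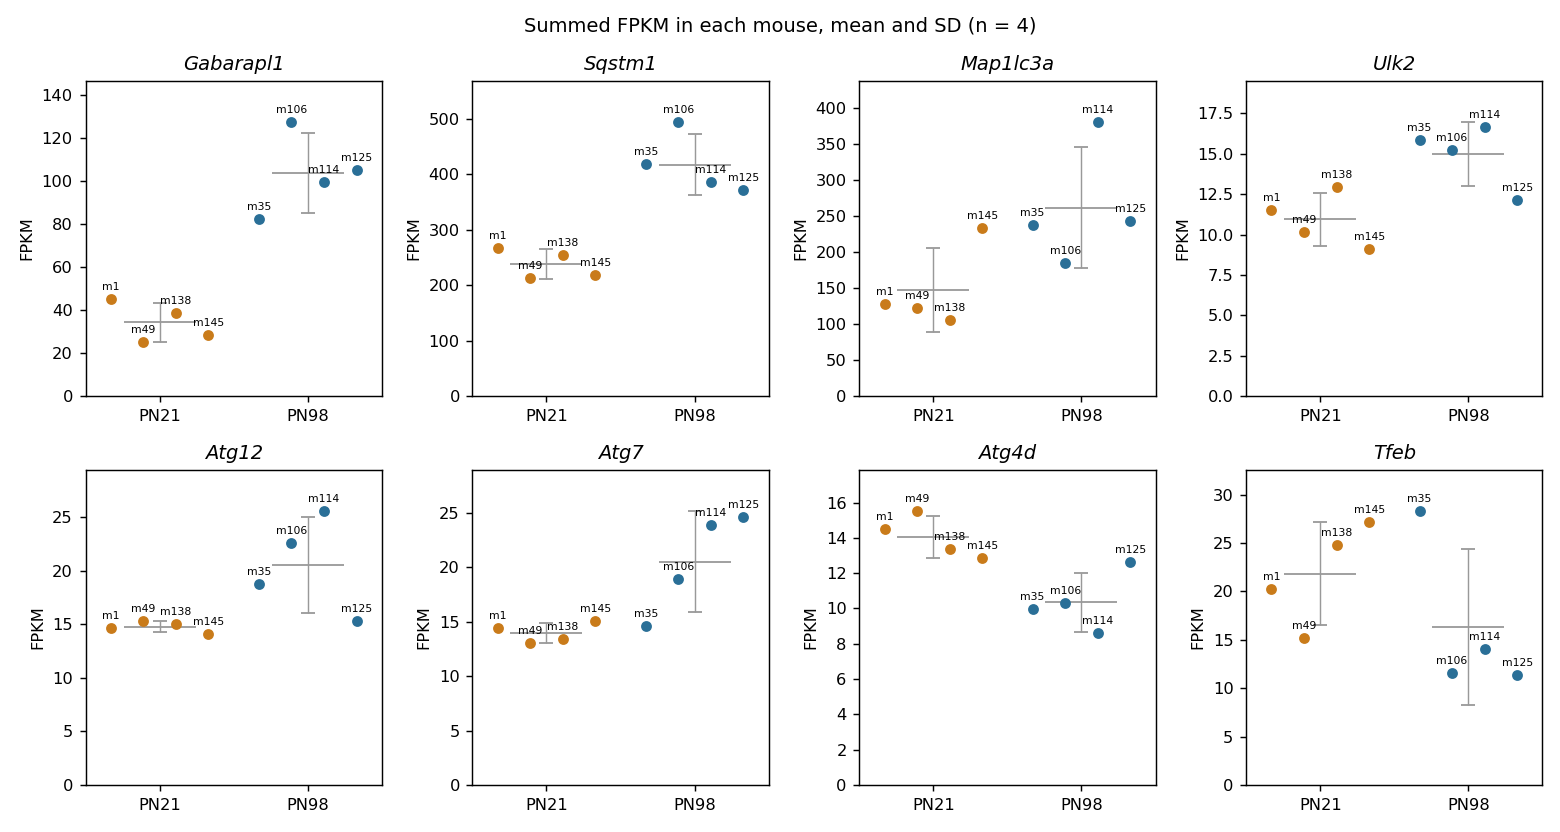
Summed FPKM (y axis, from 0) of 8 members in each PN21 (orange) and PN98 (blue) mouse, with the mean and SD of each age (n = 4). *Gabarapl1* and *Sqstm1* show separate ages, *Atg4d* is lower in all PN98 mice by less than the adjusted threshold asks, and *Tfeb* in the PN98 mouse m35 (28.3 FPKM) stands apart from the other PN98 mice.

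*Nbr1*, a second receptor for ubiquitinated cargo, had the largest estimate of all members and the largest error (log2 fold change 2.83, standard error 1.04, adjusted p = 0.138 in limma). It had 43.1, 56.2, 192 and 41.0 FPKM at PN21 and 69.2, 2331, 329 and 979 FPKM at PN98. Nearly all of this spread lay in 1 annotated transcript of 63 bases of the class misc_RNA (chr11:101559519-101559581, mm10, plus strand), which had 123 FPKM in the PN21 mouse m138, 2272, 268 and 941 FPKM in the PN98 mice m106, m114 and m125, 0.00268 FPKM in m49 and was listed at 0 in m1, m145 and m35. Its sequence lies wholly within the annotated coding sequence of 8 *Nbr1* transcripts of GENCODE vM21 and is shown because the estimate for the gene turned on it.
Nbr1 63-base transcript: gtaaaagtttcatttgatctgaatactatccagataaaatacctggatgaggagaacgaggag

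All other *Nbr1* transcripts together lay between 38.03 and 69.2 FPKM in the 8 mice, with means of 52.3 ± 12.9 FPKM at PN21 and 56.9 ± 13.3 FPKM at PN98 (SD, n = 4). Without transcripts under 200 bases, an alternative added after the data were seen, the log2 fold change of *Nbr1* was 0.12 with a standard error of 0.24 (limma, adjusted p = 0.768). *Gabarapl1* and *Sqstm1* were called in the same fit, with unchanged log2 fold changes of 1.58 and 0.81. The third receptor gene, *Wdfy3*, which encodes the scaffold ALFY, had a log2 fold change of 0.10 that was −0.03 without m145.

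**Figure D3:**
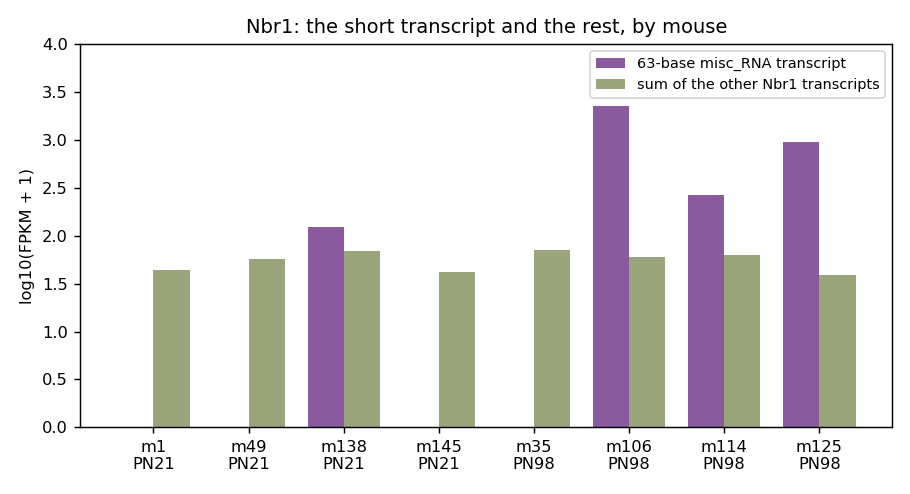
Level of the 63-base *Nbr1* transcript and of all other *Nbr1* transcripts together, as log10(FPKM + 1) on the y axis, in each of the 8 mice. The short transcript reaches 2272 FPKM in m106 and is at or near 0 in m1, m49, m145 and m35, whereas the rest stays between 38.03 and 69.2 FPKM.

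The conjugation enzymes and ATG4 proteases form the largest group, with 10 members, none of which passed the adjustment. *Atg7* encodes the E1-like enzyme that activates ATG12 and the ATG8 proteins. It had 14.4, 13.05, 13.4 and 15.1 FPKM at PN21 and 14.7, 19.0, 23.9 and 24.7 FPKM at PN98, where m35 lay within the PN21 range (log2 fold change 0.50, limma, adjusted p = 0.145). *Atg12*, whose product is joined to ATG5, had 14.7, 15.3, 15.0 and 14.1 FPKM at PN21 and 18.8, 22.6, 25.6 and 15.3 FPKM at PN98, where m125 lay within the PN21 range (0.43, adjusted p = 0.171). For both genes the PN98 mice spread over a wider range than the PN21 mice.

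*Atg4d* encodes a cysteine protease that processes ATG8 proteins and removes them from membranes. It had 14.5, 15.5, 13.3 and 12.8 FPKM at PN21 and 9.95, 10.3, 8.58 and 12.6 FPKM at PN98. Its log2 fold change was −0.41 (limma, adjusted p = 0.145), which was the lowest value in the group and 0.20 below the median of all genes, and it was −0.20 and −0.16 under the other scalings. The remaining 7 genes of the group (*Atg3*, *Atg4a*, *Atg4b*, *Atg4c*, *Atg5*, *Atg10* and *Atg16l1*) had log2 fold changes between −0.10 and 0.25, each with an adjusted p of at least 0.344. *Atg3*, *Atg4b*, *Atg5* and *Atg16l1*, which were below 0 as deposited, were above 0 under both other scalings. One transcript of *Atg4b* was left out because its decimals could not be restored.

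None of the 5 initiation genes passed the adjustment. *Ulk2* encodes a kinase related to ULK1. It had 11.5, 10.1, 12.97 and 9.14 FPKM at PN21 and 15.8, 15.3, 16.7 and 12.1 FPKM at PN98, where m125 lay below the highest PN21 mouse. Its log2 fold change of 0.42 was the highest of the group (limma, adjusted p = 0.157), and it was 0.64 with an adjusted p of 0.0360 after median of ratios scaling and 0.68 with an adjusted p of 0.108 after nuclear scaling. *Rb1cc1*, which encodes the scaffold FIP200, had the lowest value with −0.18, which was 0.04 and 0.09 under the other scalings. *Ulk1*, *Atg13* and *Atg101* lay between 0.25 and 0.32. The ratio of *Ulk2* to *Ulk1* within a library was 1.24 to 1.70 at PN21 and 1.25 to 1.98 at PN98 (difference of the mean log2 ratio 0.17, exact permutation p = 0.371).

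The 6 nucleation genes encode the class III phosphatidylinositol 3-kinase complex and its partners, and none of them passed. *Becn1*, which encodes Beclin 1, had the highest log2 fold change with 0.30 and *Uvrag* the lowest with −0.24, which was −0.03 after median of ratios scaling and 0.01 after nuclear scaling. *Pik3c3*, *Pik3r4*, *Atg14* and *Ambra1* lay between 0.01 and 0.22. For *Becn1* most of the FPKM was assigned to transcripts that GENCODE does not class as protein coding: a processed transcript of 239 bases held 34.4% of it, a retained intron 31.2% and a transcript subject to nonsense-mediated decay 20.7%. With protein-coding transcripts alone, another alternative added after the data were seen, *Becn1*, *Pik3c3* and *Ambra1* had log2 fold changes of −0.74, −0.36 and −0.27, none of which was called. Of the 5 genes for elongation and lipid supply, *Wipi2* was highest with 0.29 and *Atg9a* lowest with −0.11, the latter 0.10 and 0.14 under the other scalings, and *Atg2a*, *Atg2b* and *Wipi1* lay between −0.03 and 0.27.

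The transcriptional regulators did not pass either. TFEB and TFE3 drive lysosomal and autophagy genes, and FOXO1 and FOXO3 activate several ATG genes. *Tfeb* had 20.2, 15.2, 24.8 and 27.1 FPKM at PN21 and 28.3, 11.6, 14.0 and 11.3 FPKM at PN98, the lowest log2 fold change of the group (−0.47, limma, adjusted p = 0.354; −0.25 and −0.20 under the other scalings). PN98 mouse m35 was above all PN21 mice, whereas the other PN98 mice were below all of them. Without m35 the value was −0.75 (limma, adjusted p = 0.0497), in a fit that called 22.2% of all genes. Among the PN98 mice, m35 also had the highest sums of lymphocyte (713 FPKM), macrophage (133 FPKM), endothelial (239 FPKM) and epithelial (1.11 FPKM) markers. The part of these cell types in *Tfeb* was not tested.

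*Tfe3* had 17.9, 13.2, 19.8 and 14.7 FPKM at PN21 and 14.4, 17.1, 14.3 and 11.9 FPKM at PN98. *Foxo1* had 16.0, 18.7, 24.97 and 21.4 FPKM at PN21 and 24.8, 15.9, 12.5 and 16.5 FPKM at PN98. *Foxo3* had 4.38, 3.91, 6.74 and 4.52 FPKM at PN21 and 7.99, 4.41, 4.45 and 3.33 FPKM at PN98. In all 3 genes the ages overlapped, with log2 fold changes of −0.17, −0.23 and 0.01, of which that of *Tfe3* was above 0 under both other scalings and that of *Foxo1* under nuclear scaling. *Foxo1* and *Foxo3* were highest in m35 among the PN98 mice, as were *Uvrag*, *Ambra1*, *Pik3r4*, *Pik3c3*, *Atg4a*, *Atg4b* and *Tfeb*. These were 9 members in all, while m35 was the highest PN98 mouse for 51.5% of all genes. Mouse m106 was highest for 13 members, *Gabarapl1* and *Sqstm1* among them, and for 11.8% of all genes. For m114 and m125 it was 10 and 5 members, and 22.6% and 14% of all genes. Mouse m106 also had the highest sum of skeletal muscle markers (3634 FPKM), and the part of muscle in these members was not tested. The ratios of *Tfe3* to *Tfeb* and of *Foxo3* to *Foxo1* within a library were 0.31 and 0.24 higher at PN98 on the log2 scale, with exact permutation p-values of 0.371 and 0.343.

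Single transcripts were fitted on log2 FPKM without a pseudocount. Of 192 member transcripts, 71 could be tested. The transcript of *Gabarapl1* was called (log2 fold change 1.61, standard error 0.24, limma, adjusted p = 0.0345) and no other, against 1.35% of all 23175 transcripts tested, 0.716% of them higher and 0.639% lower. All 7 transcripts of *Sqstm1* were tested and 6 had a log2 fold change above 0. The most abundant of them was a retained intron of 457 bases with 39.8% of the gene's FPKM (0.85, adjusted p = 0.0984), and the protein-coding transcript of 953 bases had 26.2% (0.69, adjusted p = 0.105). All 3 transcripts of *Map1lc3a* had values above 0, but 67.6% of its FPKM was assigned to a processed transcript and 14.2% to the protein-coding one, which had 0.87 (adjusted p = 0.306).

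Genes around the machinery were read from the same fit in 5 lists. These lists were chosen with earlier results of these data known, so that their shares beside those of all genes are no test of enrichment. Of 8 other cargo receptors, 2 were higher and none was lower, against 2.37% and 2.94% of all genes. *Optn*, whose product optineurin takes part in the removal of mitochondria, had 35.8, 32.6, 26.0 and 19.97 FPKM at PN21 and 56.2, 81.0, 59.8 and 78.4 FPKM at PN98 (log2 fold change 1.25, standard error 0.22, limma, adjusted p = 0.0221). *Ncoa4*, the receptor for ferritin, had 19.3, 21.1, 20.3 and 14.8 FPKM at PN21 and 26.6, 39.5, 32.2 and 37.0 FPKM at PN98 (0.80, standard error 0.18, adjusted p = 0.0455). In both genes all PN98 mice were above all PN21 mice. The median log2 fold change of the list was 0.45, and that of all genes −0.21.

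Of 14 other autophagosome formation genes, 2 were higher and none was lower, beside the same 2.37% and 2.94% of all genes. *Sh3glb1*, which encodes a membrane-curving partner of Beclin 1, had 70.3 to 78.6 FPKM at PN21 and 111 to 143 FPKM at PN98 (0.77, standard error 0.14, limma, adjusted p = 0.0235). *Wdr45*, which encodes WIPI4, had 29.9 to 36.5 FPKM at PN21 and 48.8 to 59.1 FPKM at PN98 (0.62, standard error 0.14, adjusted p = 0.0444). Of 24 genes of TORC1 and AMPK control, 23 were tested and 1 was higher, against 2.37% of all genes. This was *Sesn2*, encoding a stress-induced inhibitor of TORC1, with 5.48, 3.22, 5.71 and 4.59 FPKM at PN21 and 15.4, 15.8, 10.5 and 12.3 FPKM at PN98 (1.34, standard error 0.21, adjusted p = 0.0141). *Sesn2*, *Optn*, *Ncoa4*, *Sh3glb1* and *Wdr45* were called under both other scalings as well. With 1 mouse left out, *Sesn2* lost its call only without m106 (adjusted p = 0.0549) and *Optn* without m138, m106 or m114 (0.0560 to 0.0775), whereas *Sh3glb1* kept it only without m35 or m125 (0.0611 to 0.0863 otherwise) and *Ncoa4* and *Wdr45* only without m35 (0.0841 to 0.135 otherwise).

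None of 14 genes of autophagosome fusion and tethering was called. *Stx17*, the SNARE of the finished autophagosome, had the lowest p (0.51, limma, adjusted p = 0.0919, and 0.72 with 0.0384 after median of ratios scaling). None of the 5 tested genes among 7 other MiT, FOXO and repressor factors was called either, with the lowest p for *Mitf* (0.39, limma, adjusted p = 0.177, and 0.54 with 0.0464 after median of ratios scaling). The medians of these lists were 0.05 and 0.12, and that of the TORC1 and AMPK list was −0.05.

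**Figure D4:**
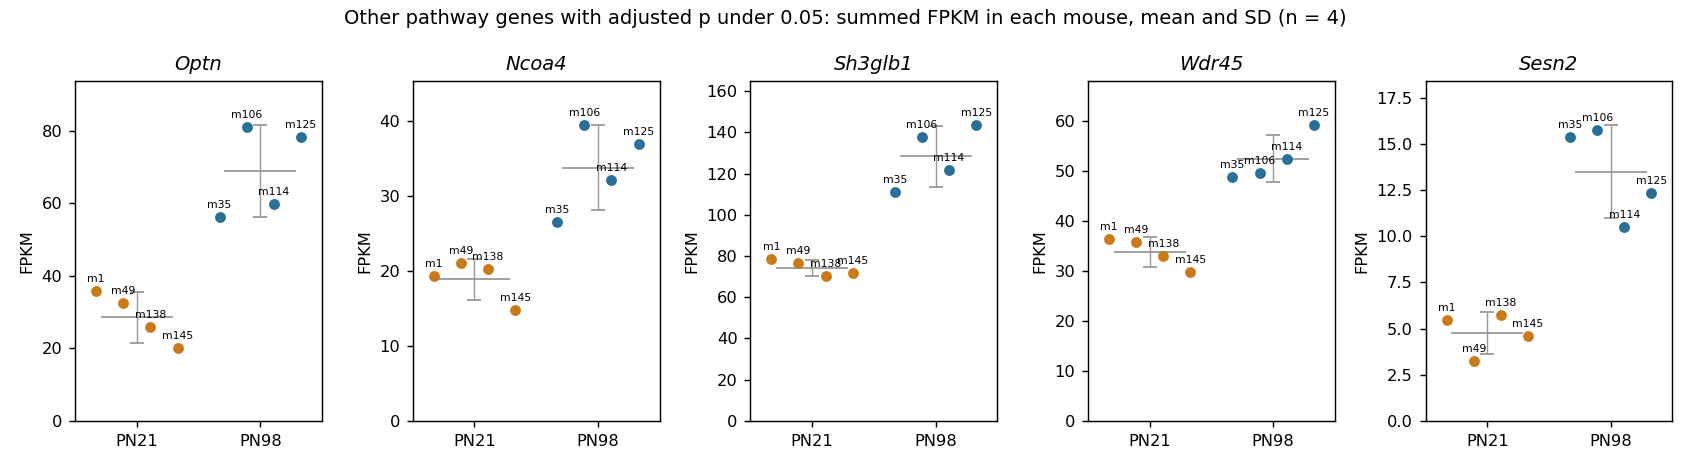
Summed FPKM (y axis, from 0) of the 5 genes of the surrounding lists with an adjusted p under 0.05, in each PN21 (orange) and PN98 (blue) mouse, with the mean and SD of each age (n = 4). In every one of them, all PN98 mice lie above all PN21 mice.

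The windows upstream of the transcription start of the pair of called members are shown because these genes differed together between the ages. They come from RefSeq (GRCm38.p6), run 5′ to 3′ and leave off bases covered by an exon of the gene. The capitals mark GC boxes (GGGCGG on either strand).
Gabarapl1, chr6:129532942-129533159, plus strand: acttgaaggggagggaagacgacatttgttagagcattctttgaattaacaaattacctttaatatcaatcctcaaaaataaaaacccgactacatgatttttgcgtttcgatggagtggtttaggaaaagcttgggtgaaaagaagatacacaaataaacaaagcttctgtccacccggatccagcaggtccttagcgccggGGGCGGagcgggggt
Sqstm1, chr11:50210828-50211070, minus strand: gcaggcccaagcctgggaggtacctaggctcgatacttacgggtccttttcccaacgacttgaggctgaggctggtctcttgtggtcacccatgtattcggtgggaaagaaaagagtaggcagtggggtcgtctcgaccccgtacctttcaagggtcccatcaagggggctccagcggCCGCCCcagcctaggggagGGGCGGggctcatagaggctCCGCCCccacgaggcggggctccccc

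Windows were found for 31 of the 38 member symbols (37 windows) and were searched and counted whole, with bases covered by an exon. Such bases were left off only in the windows shown (32 for *Gabarapl1* and 7 for *Sqstm1*). A GC box stood in 23 of the 37 windows and in 32.7% of 32851 windows of all genes. The member windows were also richer in CG as a whole, with a median of 15 CG dinucleotides and 59.6% G or C, against 6 and 52.4% over all windows. The E-box CACGTG, the core of the element that TFEB and TFE3 bind, stood in those of *Atg3*, *Atg5* and *Atg7* and in 6.02% of all windows, and its longer form TCACGTGA, which contains it, in that of *Atg3* and in 0.785% of all. The FOXO motif TGTTTAC was in none of the member windows (3.17% of all), and the antioxidant response element core TGACNNNGC was in those of *Atg13* and *Ulk2* (10.2% of all). Both strands were searched for these exact letters (N being any base), and looser forms of the motifs were not searched. In these letters, none of the latter 4 motifs was in the window of *Gabarapl1* or *Sqstm1*.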

How the data were processed

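Libraries of poly(A)+ RNA were prepared with a directional kit and sequenced in paired-end reads. Per the labels and the study's methods, alignment to mm10 was run by the authors with STAR 2.3.0, and Ensembl transcripts were quantified with Cufflinks 2.1.1. They deposited 1 FPKM value per transcript and mouse, and no read counts. FPKM divides by transcript length, so that few fragments on a very short transcript give a high value.

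In 40380 of the 91969 transcripts at least 1 value had a lost or doubtful decimal mark. Marks were restored from the standard deviation, average and score deposited beside the values, which the authors computed over these 8 mice and 2 further values. In all 5019 transcripts that also stand in a shorter deposited table, the restored values were equal to the listed ones in all 8 mice. That table gave the values of 10 others, and 127 transcripts that could not be restored were left out. Columns of that table with the authors' own fold changes and p-values were not used.

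FPKM was summed per gene over the transcripts that GENCODE vM21 assigns to it. Genes whose FPKM averaged 1 or more were compared with limma 3.58.1 in R 4.3.3 on log2(FPKM + 1) as PN98 minus PN21, so that fold changes of low genes are understated. Benjamini-Hochberg adjustment was made over all tested genes, with a threshold of 0.05. Transcripts above 0 in all 8 mice and averaging over 2 FPKM at either age were fitted on log2 FPKM, as in the study's design. Ratios were compared with two-sided exact permutation tests. The fit was tested on simulated data. Other scalings, weights, filters, pseudocounts, transcript choices and the removal of each mouse were tried as alternatives.

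The members, the surrounding lists and the markers were chosen with earlier results of these data known. Statistics are given in full for members with an adjusted p under 0.05. Values of each mouse are given also for members with an unadjusted p under 0.05, for the ATG8 family and for the transcriptional regulators. The other members are given by range, with the highest and lowest of each step. Surrounding lists are given by counts and by the genes that passed, or else by the gene with the lowest p.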

Additional observations from a re-analysis of the deposited data

Results flagged for a closer look

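Groups of 4 mice were checked for a highest or lowest mouse whose gap to the next one took more of the range of its group than Dixon's critical value allows. Chance alone gives this in about 1 in 20 groups, and 6 of 96 groups showed it. At PN98, mouse m35 stood apart with 28.3 FPKM of *Tfeb* (next 14.0), 11.2 FPKM of *Ambra1* (next 8.03) and 7.41 FPKM of *Atg10* (next 10.9). At PN21, mouse m145 stood apart with 234 FPKM of *Map1lc3a* (next 128), and mouse m138 with 192 FPKM of *Nbr1* (next 56.2), most of it from the 63-base transcript. Mouse m138 also had 773 FPKM of summed skeletal muscle markers (next 126).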

How the results depend on the processing

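No paired analysis was possible because the labels give no replicate numbers shared between the ages. The ratio of *Map1lc3a* to *Map1lc3b* was not run. The limits are small groups and an unknown depth. Among all genes, 854 passed, against 4665 with weights per mouse, 547 with a minimum mean FPKM of 5 and 210 (without m106) to 3547 (without m35) with 1 mouse left out. Among members, 2 passed, against 7 with weights per mouse (29.0% of all genes) and 1 to 5 with 1 mouse left out, the 5 being those without m35 (22.2% of all genes). Among all transcripts, 314 passed, against 503 after median of ratios scaling, 1571 with weights, 557 with a pseudocount of 1 and no condition on zeros, and 47 to 1779 with 1 mouse left out. Among member transcripts, 1 passed, against 2 after median of ratios scaling, 5 with weights and 0 to 2 with 1 mouse left out. The cause of these differences was not tested. With weights per mouse, *Ulk2*, *Atg7*, *Atg12*, *Atg4d* and *Nbr1* passed beside *Gabarapl1* and *Sqstm1*, and without m35 *Atg7*, *Nbr1* and *Tfeb* did. The estimate of *Nbr1* turned on its 63-base transcript. No ratio test changed its call, with 0.0571 as the lowest exact permutation p adjusted over the 4 ratios with 1 mouse left out. An unadjusted exact p of such a test cannot go below 0.0286. A ratio alone at this floor has 0.114 after adjustment over the 4 ratios, so that the unchanged calls say little about stability.

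Of 661 log2 fold changes of members under the alternatives, 602 kept direction and side of the threshold, and 44 of 20 members changed sign, none of them with an adjusted p under 0.05. After median of ratios scaling, those that changed sign were *Rb1cc1* (0.0388), *Atg2b* (0.15), *Atg9a* (0.10), *Atg3* (0.16), *Atg4b* (0.12), *Atg5* (0.11), *Atg16l1* (0.18) and *Tfe3* (0.0437). After nuclear scaling they were *Rb1cc1* (0.0850), *Uvrag* (0.00869), *Atg2b* (0.18), *Atg9a* (0.14), *Atg3* (0.21), *Atg4b* (0.17), *Atg5* (0.15), *Atg16l1* (0.23), *Tfe3* (0.0863) and *Foxo1* (0.0337). With weights per mouse they were *Ambra1* (−0.0848), *Atg2a* (−0.0426), *Atg2b* (0.0412) and *Foxo3* (−0.0408). With every listed transcript they were *Atg4a* (−0.15), *Atg10* (−0.25), *Gabarap* (−0.0412), *Wdfy3* (−0.0320) and, outside the members, *Mitf* (−0.67). With protein-coding transcripts alone they were *Becn1* (−0.74), *Pik3c3* (−0.36), *Ambra1* (−0.27) and *Atg16l1* (0.00464). With 1 mouse left out, log2 fold changes ranged from −0.0595 to 0.23 for *Pik3r4*, −0.10 to 0.0898 for *Ambra1*, −0.15 to 0.12 for *Atg2a*, −0.11 to 0.10 for *Atg2b*, −0.15 to 0.00852 for *Atg3*, −0.0928 to 0.00788 for *Atg16l1*, −0.0272 to 0.23 for *Wdfy3* and −0.20 to 0.15 for *Foxo3*.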
